A study of Sus scrofa with 6 samples.

Results

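Chemokine receptors are the surface receptors by which leukocytes read chemokine gradients. The 8 receptors described here, CCR1, CCR2, CCR7, CX3CR1, CXCR3, CXCR4, CXCR5 and CXCR6, are carried by cells that enter the artery wall. They were taken from the deposited gene table by symbol, which gave 9 of its 22861 gene entries, since the symbol CCR2 stood on 2 entries. All 8 symbols were present, and 4 entries had enough counts to be tested. The tissue was abdominal aorta of Wisconsin Miniature Swine. The lesion group was the WMS FH line (FH stands for familial hypercholesterolaemia, an inherited excess of blood cholesterol) with atherosclerotic lesions, and the lesion-free group was WMS normal. RNA of 11 animals a group was combined into 3 pools, lesion replicates 1 to 3 and lesion-free replicates 4 to 6. Swine line and lesion status went together in every pool and cannot be told apart, and no label gives a pool's age, sex, diet or animals.

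Chemokine receptors couple to inhibitory G proteins, and ligand binding turns a rolling leukocyte into an adherent, migrating one. CCR2 with its ligand CCL2 brings classical monocytes out of bone marrow and into inflamed tissue, CX3CR1 marks patrolling monocytes and many resident macrophages, and CCR1 serves monocytes and neutrophils. CXCR4, the receptor of CXCL12, is carried by most leukocytes and also by some vascular cells. CXCR3 and CXCR6 mark activated T cells, CCR7 guides naive T cells and mature dendritic cells to lymphoid tissue, and CXCR5 guides B cells to follicles. In atherosclerosis, CCR2 and CX3CR1 are known for the recruitment and survival of plaque macrophages.

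Lesion replicate 1 was the shallowest pool, with 4650176 counts, and the other 5 held 8492673 to 11442433. Levels are given in CPM, the usual depth-normalised count, with library totals adjusted by TMM (trimmed mean of M values), on which a floor of 3 counts stood at 0.576 CPM in the shallowest pool and at 0.268 to 0.359 CPM elsewhere. Lesion replicate 1 stood apart from its group, with a Pearson r of 0.792 and 0.794 across tested genes with the other lesion pools, which correlated at 0.912. For the tissue label, the smooth muscle actin ACTA2 lay between 12750 and 24990 CPM in every pool. Of 11673 genes tested with limma, 0.968% were called higher and 0.0771% lower in lesion pools at an adjusted p under 0.05. Every lesion pool lay above every lesion-free pool in 10.4% of tested genes and below in 9.01%. The median log2 fold of all tested genes was -0.00.

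None of the 4 tested receptor entries was called in either direction by limma, and 2 of the 4 had an unadjusted p under 0.05, against 6.47% of tested genes with such a p in the higher direction. CCR1 and CXCR4 had higher values in all lesion pools than in any lesion-free pool. CX3CR1 was high in lesion replicates 1 and 3 only. CCR2 differed little on the tested entry, and CCR7, CXCR3, CXCR5 and CXCR6 were at or near 0 in most pools. These are bulk samples, in which fewer cells of a type and less RNA per cell cannot be told apart.

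**Figure D1:**
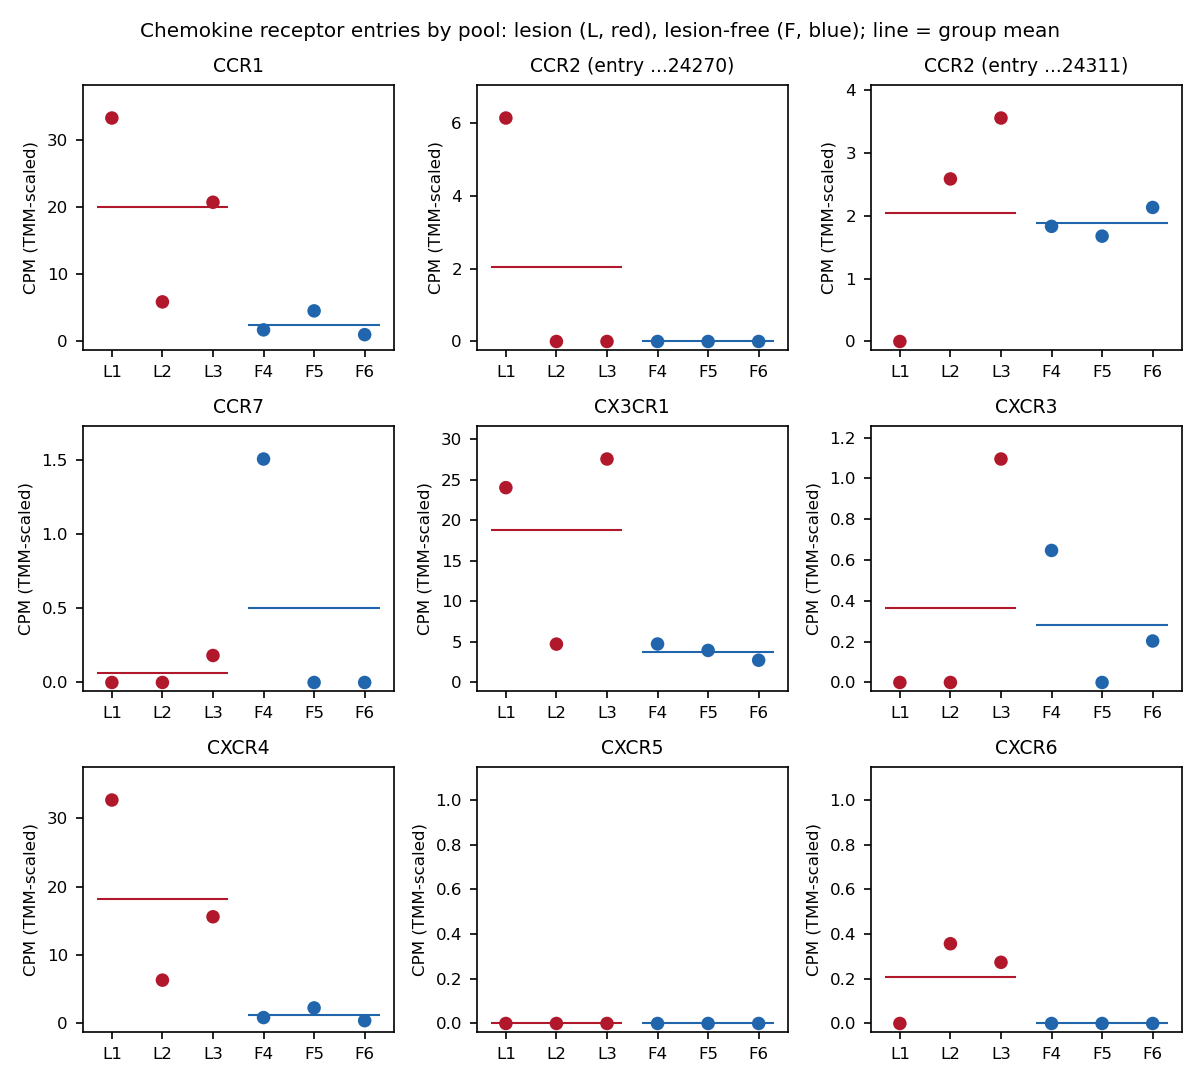
Level of each receptor in the 6 pools, in CPM, with red points for lesion pools (L1 to L3), blue points for lesion-free pools (F4 to F6) and a line at each group's mean. CCR1 and CXCR4 do not overlap between groups, while lesion replicate 2 lies among or near the lesion-free pools in CX3CR1.

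CCR1 (ENSSSCG00000011322), a receptor of inflammatory CC chemokines on monocytes, stood at 33.2, 5.89 and 20.7 CPM in lesion replicates 1, 2 and 3. The values of lesion-free replicates 4, 5 and 6 were 1.73, 4.55 and 1.02 CPM, from 16, 38 and 10 counts. Lesion replicate 2 was the lowest lesion pool and only slightly above lesion-free replicate 5, the highest of its group, so the groups did not overlap by a narrow margin. The means were 19.95 ± 13.7 CPM (SD, n = 3) and 2.43 ± 1.87 CPM (SD, n = 3). The fitted log2 fold was 2.83 with a standard error of 1.15 and a 95% interval of 0.36 to 5.31 (limma adjusted p = 0.395, unadjusted p = 0.0279). The difference in means was 8.21-fold and the adjusted test did not call it.

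CXCR4 (ENSSSCG00000015688), the CXCL12 receptor, stood at 32.7, 6.34 and 15.6 CPM in lesion replicates 1, 2 and 3. The lesion-free replicates 4, 5 and 6 stood at 0.863, 2.28 and 0.406 CPM, from 8, 19 and 4 counts. All lesion pools were above all lesion-free pools, and again lesion replicate 2 was the lowest of the lesion group and lesion-free replicate 5 the highest of its own. The means were 18.2 ± 13.4 and 1.18 ± 0.975 CPM (SD, n = 3 each), a ratio of 15.4. The log2 fold was 3.76 with a standard error of 1.41 and a 95% interval of 0.75 to 6.77 (limma adjusted p = 0.329, unadjusted p = 0.0179). Of the 11673 tested genes, 167 had a log2 fold at least that of CXCR4, and 27 of those were called. The isoform CXCR4-001 held all 443 counts of the gene, and CXCR4-002 held 0.

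CX3CR1 (ENSSSCG00000024024), the receptor of the membrane-bound chemokine CX3CL1, stood at 24.0, 4.73 and 27.5 CPM in lesion replicates 1, 2 and 3. The lesion-free replicates 4, 5 and 6 had 4.75, 3.95 and 2.74 CPM. Lesion replicates 1 and 3 were far above the other 4 pools, and lesion replicate 2 lay just below lesion-free replicate 4, so the groups overlapped. The means were 18.8 ± 12.3 and 3.81 ± 1.01 CPM (SD, n = 3 each). The log2 fold was 1.85 with a standard error of 0.95 and a 95% interval of -0.20 to 3.89 (limma adjusted p = 0.522). With lesion replicate 2 left out, the log2 fold was 2.81 with a limma adjusted p of 0.0419, and CX3CR1 was then called.

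CCR2, the monocyte receptor of CCL2, was recorded on a pair of gene entries that never both had counts in the same pool. The entry ENSSSCG00000024311 had 0, 29 and 39 counts in the lesion pools (replicates 1, 2 and 3) and 17, 14 and 21 counts in the lesion-free pools (replicates 4, 5 and 6). The entry ENSSSCG00000024270 had 32 counts in lesion replicate 1 and 0 in every other pool. Lesion replicate 1 thus held all its CCR2 counts on the entry that was at 0 in the 5 other pools. The isoform table also held a further transcript under a CCR2 name, with 4 counts in lesion replicate 3 and 1 in lesion-free replicate 6, which is tied to neither entry and is not in the sum of both entries or in the plot of the entries. In the Sscrofa11.1 RefSeq table the first entry's identifier carries the name CCR3, and the second identifier is not listed there. That table places CCR1, CCR3 and CCR2 side by side in this order. Assignment of reads among these similar receptors was not tested, and the CCR2 values are uncertain to that extent.

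The tested entry gave 0, 2.59 and 3.56 CPM in lesion replicates 1 to 3 against 1.83, 1.68 and 2.13 CPM in lesion-free replicates 4 to 6. Its log2 fold was -0.44 with a standard error of 1.42 (limma adjusted p = 0.937), and without lesion replicate 1 it was 0.67 (limma adjusted p = 0.835). Summing both entries, an alternative chosen after seeing the data, gave 6.15, 2.59 and 3.56 CPM in lesion pools against the same lesion-free values. On the sum the lesion pools lay above the lesion-free pools without overlap. The means were 4.10 ± 1.84 and 1.88 ± 0.232 CPM (SD, n = 3 each). The log2 fold of the sum was 0.85 with a standard error of 0.93 and a 95% interval of -1.14 to 2.83 (limma adjusted p = 0.781).

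**Figure D2:**
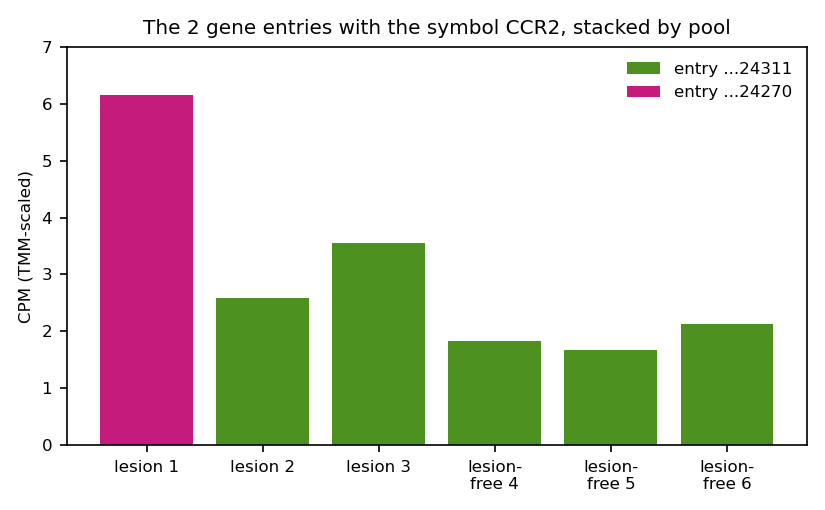
Stacked bars give the level of the 2 CCR2 entries in CPM in each of the 6 pools, with magenta for ENSSSCG00000024270 and green for ENSSSCG00000024311. Lesion replicate 1 has its 6.15 CPM on one entry, and the other 5 pools have theirs, 1.68 to 3.56 CPM, on the other.

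The remaining receptors were too low to test. CXCR3, which binds the interferon-induced chemokines CXCL9, CXCL10 and CXCL11, had 0, 0 and 12 counts in lesion replicates 1 to 3 and 6, 0 and 2 in lesion-free replicates 4 to 6. Summed over a group, this was 0.438 CPM (95% exact Poisson interval 0.227 to 0.766) in lesion and 0.291 CPM (0.126 to 0.574) in lesion-free pools, intervals that overlap and cover counting error only. A group difference in CXCR3 was not tested. CXCR6, the receptor of CXCL16, had 0, 4 and 3 counts in lesion replicates 1 to 3 and 0 in all lesion-free pools. The exact Poisson intervals were 0.103 to 0.527 CPM over the lesion group and 0 to 0.134 CPM over the lesion-free group. These intervals overlap and cover counting error only. Overlap of such intervals is no test of a difference, and a group difference in CXCR6 was not tested.

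CCR7, which guides cells to lymphoid tissue, had 2 counts in lesion replicate 3 and 14 in lesion-free replicate 4, with 0 in the other pools. The lesion-free value was therefore that of a single pool, at 1.51 CPM. Exact Poisson intervals for CCR7 were 0.00885 to 0.264 CPM over the lesion group and 0.279 to 0.855 CPM over the lesion-free group. They did not overlap, but they cover counting error only and leave out the spread between pools. Lesion-free replicate 4 also had the highest level of LTB, the lymphotoxin beta chain of lymphoid cells, at 5.50 CPM against 0.192 to 2.54 CPM elsewhere. LTB was named after its values were seen, and its part in the CCR7 count was not tested. CXCR5, the follicle-homing receptor of B cells, had 0 counts in all 6 pools, which at a floor of 3 counts allows up to 0.110 CPM over the lesion group and 0.109 CPM over the lesion-free group.

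Likeness of pattern is given for the tested members as a description over 6 pools of shared libraries. CCR1 and CXCR4 were the closest pair of members. Across pools, the root mean square distance of centred log2 CPM was 0.504 between CCR1 and CXCR4, 0.781 between CCR1 and CX3CR1 and 1.20 between CXCR4 and CX3CR1. Only 5 of the tested genes were nearer to CCR1 than CXCR4 was, and only 1 was nearer to CXCR4 than CCR1 was. The 3 nearest genes to CCR1 other than members were GMFG at 0.405, CALCR at 0.407 and EVI2B at 0.421. The same 3 were nearest to CXCR4, at 0.593, 0.338 and 0.585. GMFG, an actin regulator of blood cells, rose in lesion pools (log2 fold 3.00, limma adjusted p = 0.0141), whereas CALCR, the calcitonin receptor, and EVI2B were not called. The nearest genes to CX3CR1 were TTF2 at 0.441, HNMT at 0.474 and IKBKE at 0.496, and those to the tested CCR2 entry were PDPN at 0.203, ZNF397 at 0.235 and INCENP at 0.248. PDPN and ZNF397, like that entry, had no counts in lesion replicate 1.

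The lowest lesion pool was replicate 2 for CCR1, CXCR4 and CX3CR1. It was also the lowest lesion pool for 73.5% of the 113 genes called higher, and for 27.1% of all genes tested. Among the 1218 tested genes with every lesion pool above every lesion-free pool, CCR1 and CXCR4 included, replicate 2 was lowest in 51.6%. The summed level of the macrophage and monocyte markers was also lowest there within the lesion group, although CSF1R, SPI1 and MRC1, named after their values were seen, were lowest in lesion replicate 1. The sum was 2196, 1332 and 2213 CPM in lesion replicates 1, 2 and 3 and 402.7, 263.9 and 210.7 CPM in lesion-free replicates 4, 5 and 6, over 14 matched genes. Of 13 tested myeloid markers, 9 rose and none fell, with a median log2 fold of 2.96. The scavenger receptor MSR1 rose by 4.60, the complement subunit C1QC by 3.02, the pore-forming MPEG1 by 3.08 and the lysosomal CD68 by 4.01 on the log2 scale (limma adjusted p = 0.000227, 0.000168, 0.000133 and 0.000645). CD14 (log2 fold 0.59, limma adjusted p = 0.585) and MRC1 (-0.91, limma adjusted p = 0.72) were not called, and their groups overlapped. Of the 13 tested markers, 12 had a log2 fold above 0. The part of macrophages and monocytes in the receptor differences was not tested.

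The receptors were also set against that summed marker level. Per 1000 CPM of myeloid markers, CCR1 was 15.1, 4.42 and 9.36 CPM in lesion replicates 1 to 3 and 4.28, 17.3 and 4.82 CPM in lesion-free replicates 4 to 6. CXCR4 was 14.9, 4.76 and 7.05 CPM against 2.14, 8.62 and 1.93 CPM, and CX3CR1 was 10.9, 3.55 and 12.4 CPM against 11.8, 15 and 13.0 CPM. For all 3 receptors the groups overlapped on this scale. CCR2, both entries summed, was 2.80, 1.94 and 1.61 CPM in lesion pools against 4.55, 6.35 and 10.1 CPM, and every lesion pool was below every lesion-free pool. The summed markers were 1332 to 2213 CPM in lesion and 210.7 to 402.7 CPM in lesion-free pools. A gene at equal CPM in all pools would therefore also be lower in every lesion pool on this scale. The share of all genes that are so was not counted. These ratios are descriptions with no test.

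**Figure D3:**
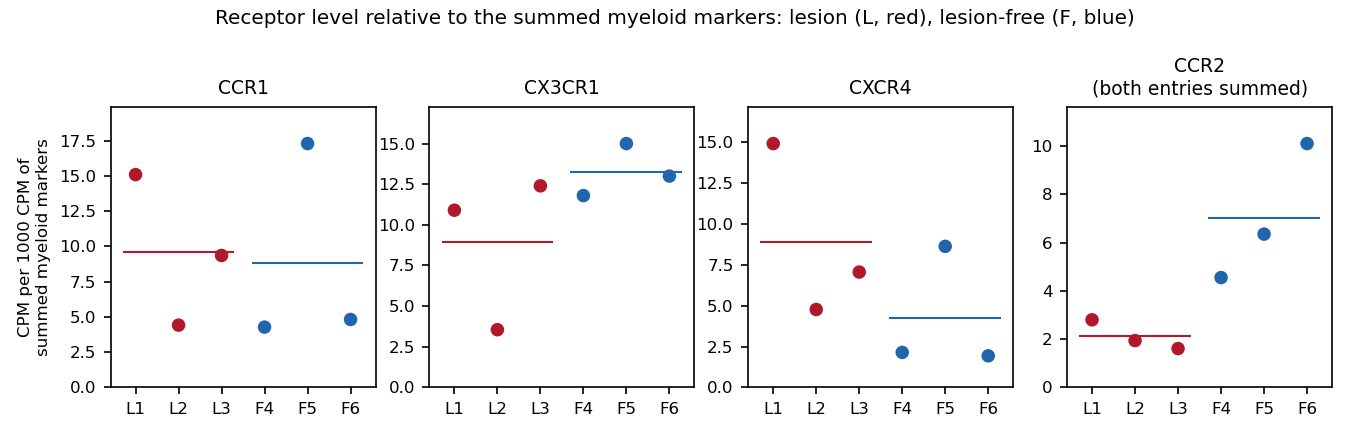
Receptor level per 1000 CPM of summed myeloid markers in the 6 pools, red for lesion and blue for lesion-free, with a line at each group's mean. CCR1, CXCR4 and CX3CR1 overlap between groups, and CCR2 with both entries summed is lower in all lesion pools. The marker sum that divides each level is itself higher in all lesion pools.

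Lymphocyte and neutrophil markers followed. None of 6 tested T cell markers was called by limma, with 0 at an unadjusted p under 0.05 and 0 called by limma-trend, and the summed level of 16 matched T cell markers was 12.87 to 24.08 CPM in lesion and 5.751 to 11.54 CPM in lesion-free pools. The T cell receptor chain CD3E stood at 4.61, 0.535 and 2.37 CPM in lesion replicates 1 to 3 and at 1.19, 0 and 0.406 CPM in lesion-free replicates 4 to 6. CD3D, too low to test, had 27, 7 and 19 counts in lesion pools and 1, 0 and 3 in lesion-free pools. CD3G, also untested, had 0, 11 and 12 counts in lesion pools and 0 in every lesion-free pool. The chain CD247 had a log2 fold of -0.12 (limma adjusted p = 0.987). The B cell antigen MS4A1 was at 0 in all pools, and neutrophil MPO was at 0 in all pools. NKG7, a granule protein of cytotoxic lymphocytes, stood at 53.0, 18.3 and 56.2 CPM against 2.26, 0 and 1.83 CPM (log2 fold 5.73, limma adjusted p = 0.225), and was called by limma-trend. The cytotoxic genes PRF1 and GZMB reached at most 0.711 CPM in any pool. In the RefSeq table the identifier of the GZMB entry carries the name GZMH, so the GZMB value is uncertain to that extent. The part of lymphocytes in the receptor values was not tested.

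The other cell type lists gave these counts. Dendritic cell markers had 1 of 2 tested genes higher, WDFY4, which serves antigen presentation (log2 fold 3.62, limma adjusted p = 0.013). The other, FCER1A, was not called (log2 fold 0.91, limma adjusted p = 0.796). FLT3, too low to test, had 0, 0 and 8 counts in lesion pools and 3, 23 and 5 in lesion-free pools. XCR1, also untested, had 21, 0 and 8 counts in lesion pools and 0 in every lesion-free pool. The dendritic list thus had no common direction. Smooth muscle markers had 2 of 7 lower, CNN1 by -1.37 and DES by -1.35 on the log2 scale (limma adjusted p = 0.0249 and 0.0466), with a median of -0.93. The WDFY4 call was lost without any one of the lesion-free pools (limma adjusted p up to 0.0884), and those of CNN1 and DES when lesion replicate 1 or lesion-free replicates 5 or 6 were left out (up to 0.185 and 0.277), that of DES also with limma-trend or without robust moderation. No gene was called among 8 endothelial, 8 adventitial fibroblast, 5 lymphatic, 5 lymphoid tissue, 3 mast cell or 2 B cell markers tested, and no neutrophil marker of 7 matched had enough counts. At an unadjusted p under 0.05, 3 endothelial, 2 fibroblast, 1 lymphatic and 2 lymphoid tissue genes passed. None of these lists had a gene called by limma-trend. The haemoglobin chain HBB, a red blood cell marker, stood at 20.6 to 98.2 CPM in lesion pools and at 29.7 to 137 CPM in lesion-free pools, with overlapping groups.

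Of 16 other chemokine receptors listed, 11 were matched and 6 tested. None was called by limma or limma-trend, 2 had an unadjusted p under 0.05 in the higher and 1 in the lower direction, and the median log2 fold was 0.84. The atypical receptor ACKR1, which binds chemokines on venular endothelium and red cells without signalling, was 6.15, 11.2 and 7.85 CPM in lesion and 29.8, 30.4 and 23.9 CPM in lesion-free pools. All lesion pools were below all lesion-free pools, with a log2 fold of -1.67 and a standard error of 0.42 (limma adjusted p = 0.0877). With array quality weights ACKR1 was called lower, at -1.50 (limma adjusted p = 0.0303).

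Ligands of the 8 receptors numbered 22 in the list, with 17 matched and 12 tested. None was called by limma or limma-trend, 4 had an unadjusted p under 0.05 in the higher and 2 in the lower direction, and the median log2 fold was 1.14. For CCR1, the ligand CCL23 stood at 55.9, 29.0 and 16.4 CPM in lesion replicates 1 to 3 and at 9.17, 3.47 and 3.35 CPM in lesion-free replicates 4 to 6. All lesion pools were higher, with a log2 fold of 2.52 and a standard error of 0.68 (limma adjusted p = 0.124), and CCL23 was called without lesion replicate 3 (log2 fold 2.97, limma adjusted p = 0.0252) and with array quality weights (2.63, limma adjusted p = 0.027). CCL5 had a log2 fold of 0.02 and a standard error of 0.30 (limma adjusted p = 0.991), at 163 to 277 CPM in lesion-free pools and 155 to 261 CPM in lesion pools. CCL3L1 had a log2 fold of 2.50 (limma adjusted p = 0.641).

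For CCR2, CCL2, the main monocyte attractant, stood at 32.7, 18.7 and 33.0 CPM in lesion replicates 1 to 3 and at 13.9, 8.87 and 7.21 CPM in lesion-free replicates 4 to 6. The groups did not overlap, and the log2 fold was 1.46 with a standard error of 0.44 (limma adjusted p = 0.183). CCL8, shared by CCR1 and CCR2, had 74, 33 and 23 counts in lesion pools and 0, 0 and 3 in lesion-free pools (log2 fold 5.02, limma adjusted p = 0.33). With no filter on low counts it was called, at 5.10 (limma adjusted p = 0.0361). CX3CL1, the ligand of CX3CR1, had a log2 fold of -0.25 with a standard error of 0.32, with overlapping groups (limma adjusted p = 0.818).

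For CXCR4 both tested ligands had log2 folds below 0, without a call. CXCL12 stood at 30.4, 35.4 and 38.3 CPM in lesion replicates 1 to 3 and at 71.1, 58.1 and 55.1 CPM in lesion-free replicates 4 to 6. Every lesion pool was below every lesion-free pool, with a log2 fold of -0.80 and a standard error of 0.29 (limma adjusted p = 0.302). MIF, a cytokine that also binds CXCR4, had a log2 fold of -0.64 (limma adjusted p = 0.514). For CCR7, CCL19 stood at 24.6, 57.6 and 60.6 CPM in lesion and 144, 90.0 and 84.1 CPM in lesion-free pools, lower in all lesion pools (log2 fold -1.13, limma adjusted p = 0.211). The other CCR7 ligand, CCL21, had a log2 fold of 1.78 with overlapping groups (limma adjusted p = 0.183), and was called with array quality weights at 2.30 (limma adjusted p = 0.011). For CXCR3 and CXCR6, CXCL10 had a log2 fold of 2.84 (limma adjusted p = 0.497) and CXCL16 of 0.81 (limma adjusted p = 0.476), both with overlapping groups.

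**Figure D4:**
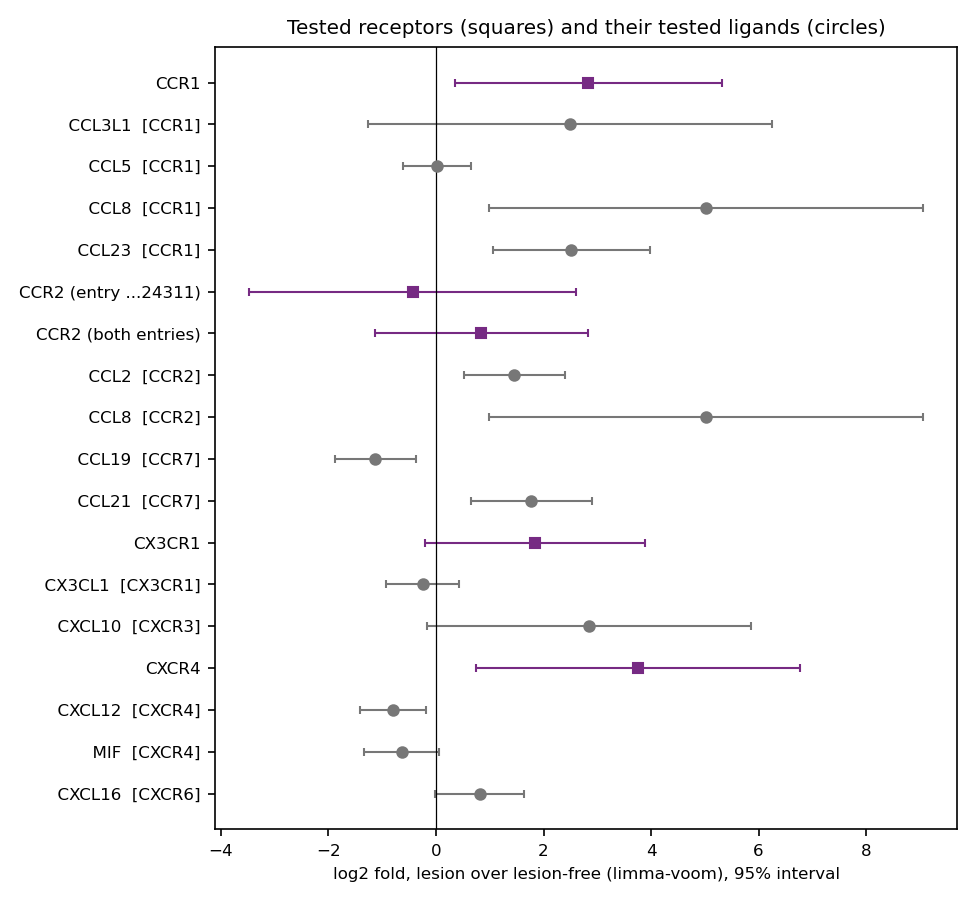
Log2 fold of lesion over lesion-free pools with its 95% interval for the tested receptors and ligands, from limma on all tested genes. None was called at an adjusted p under 0.05, and CXCL12 and CCL19 lie below 0 while CXCR4 and CCR1 lie above it.

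Downstream of the receptors, 2 of 27 tested genes of signalling and desensitisation rose and none fell, with a median log2 fold of 1.59 and 20 of 27 above 0. At an unadjusted p under 0.05, 15 of the 27 were higher and 0 lower. ARRB1, the arrestin that uncouples activated receptors, stood at 45.9, 47.6 and 40.6 CPM in lesion pools and at 14.4, 15.6 and 12.5 CPM in lesion-free pools. Its lesion pools were close together and far above the others (log2 fold 1.66, standard error 0.34, limma adjusted p = 0.0246). RGS10, a regulator that shortens G protein signalling, stood at 53.0, 25.2 and 30.1 CPM against 7.44, 2.16 and 2.44 CPM (log2 fold 3.22, standard error 0.71, limma adjusted p = 0.0426). The ARRB1 call was lost without lesion replicate 2 or lesion-free replicates 5 or 6, and the RGS10 call without any one of the lesion-free pools, with adjusted p up to 0.178 and 0.179. The number called higher was 3 with plain library totals or limma-trend, 4 with an added count of 2 and 5 with array quality weights, and 0 to 2 with 1 pool left out (1 without lesion-free replicate 4 or 5, and 0 without lesion-free replicate 6). The genes gained were FGR, VAV1 and RGS1, named after their values were seen.

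Over 13 alternatives fixed for the fit, the log2 fold of CXCR4 lay between 3.18 and 4.44 and that of CCR1 between 2.34 and 3.65. Neither was called in any of them, with limma adjusted p of 0.07 to 0.605 for CXCR4 and 0.0526 to 0.648 for CCR1. CX3CR1 lay between 1.13 and 2.81 and was called only without lesion replicate 2.

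**Figure D5:**
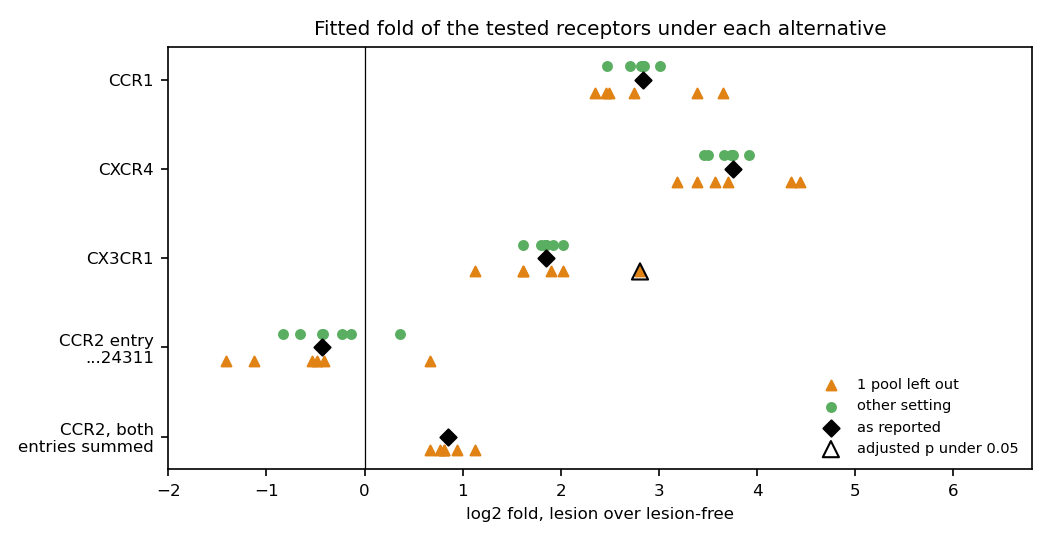
Log2 fold of the tested receptors under the reported setting (diamond), with 1 pool left out (triangles) and under other settings (circles), with a ring where the adjusted p was under 0.05. CCR1, CXCR4 and CX3CR1 stay above 0 in all settings, and the tested CCR2 entry lies on both sides of 0.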

How the data were processed

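RNA of abdominal aorta was sequenced in 6 pools from stranded total RNA libraries, per the labels' protocols. The submitters' processing notes name RSEM 1.3.0 and edgeR, with no role for either. No source used here names an aligner or a build. The authors deposited whole-number read counts per gene and isoform, with commas in values of 1000 and more; the commas were removed. With commas the values could not be entered as the count unit, and negative binomial models were left out for that reason alone. The tests used limma 3.58.1 in R 4.3.3, with voom (added count 0.5), TMM scaling, robust empirical Bayes and Benjamini-Hochberg adjustment over 11673 genes, two-sided. Tested genes had the CPM of 10 counts in the median library (1.00 CPM) in at least 3 pools and at least 15 counts in all. Intervals on single genes' summed counts are exact Poisson, at 95%.

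Depth ran from 4650176 to 11442433 counts. Within a group, chi-square over its degrees of freedom was 20.7 to 86.9 for each pair of libraries, so none repeated another. No label ties animals to pools, and p-values measure the spread between pools. The script was tested on simulated data. The receptors and the gene lists (206 genes, 170 matched, 107 tested) were chosen with earlier results of these data known. Named were all members, their tested ligands, up to 4 called genes of each other list (2 by smallest p where none was called), and the 3 genes nearest to each tested member. Alternatives were the filter, scaling, limma-trend, added count, weights, empirical Bayes and each pool left out. Some genes of the lists are not reported here.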

Additional observations from a re-analysis of the deposited data

How the results depend on the processing

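No paired analysis was possible because the groups share no replicate number. The log2 folds of CCR1 and CXCR4 kept their direction and stayed uncalled in all 13 alternatives. CX3CR1 ranged from 1.13 to 2.81 with 1 pool left out, and was called without lesion replicate 2. The tested CCR2 entry reversed from -0.44 to 0.36 with array quality weights and, after seeing the data, to 0.85 with both entries summed; with 1 pool left out it ranged from -1.42 to 0.67, the highest without lesion replicate 1. The summed CCR2 ranged from 0.67 to 1.12 with 1 pool left out. The number of receptors called higher was 0 to 1 with 1 pool left out, the 1 being CX3CR1. Over all genes, 113 were called higher. Without a filter this was 171, with array quality weights 213. Leaving out 1 pool gave 55 to 150 (65 when lesion-free replicate 5 was dropped, 55 when replicate 6 was). The 9 genes called lower were 17 without a filter, 15 with an added count of 2 and 40 with array quality weights. With 1 pool left out they ranged from 4 to 36, namely 36 when lesion replicate 3 was dropped, 21 when lesion-free replicate 4 was, 5 for lesion replicate 1 and 4 for lesion-free replicates 5 and 6. The causes were not tested. Depth limits lesion replicate 1 most, where 3 counts equal 0.576 CPM. CCR7, CXCR3, CXCR5 and CXCR6 had too few counts to test, and the part of depth in this was not tested.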
